A study of Rattus norvegicus with 15 samples.

Results

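The genes described here are 10 genes that mark the fibroblasts of the meninges and of the space around brain vessels. They are the PDGF receptors Pdgfra and Pdgfrb, the matrix genes Lum, Dcn and Fbln1, and the transcription factors Foxc1, Tbx18, Zic1, Tfap2b and Twist1. The members were chosen by name from a table of FPKM, fragments scaled to transcript length and library size. Rows that carried a member's gene name were taken, with unnamed assembled transcripts of loci holding no other name, and their FPKM were summed per gene and library. All 10 members were found, among 37367 genes, and all 10 passed the filter of a mean of 0.5 FPKM that left 17895 genes for testing.

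The study asked how x-rays change the RNA of brain microvascular endothelial cells (BMECs), which line the capillaries of the brain, in primary culture. The cells came from cerebral microvessels of Spraque-Dawley littermates of both sexes, 2 to 3 weeks old, after the pia mater and the surface vessels had been stripped off. There were 5 groups of 3 libraries: unexposed controls labelled as 12 h in culture, and cells cultured for 12 h or 24 h after 5 Gy or 20 Gy. No library was labelled as a control kept for 24 h without exposure. At 24 h the hours in culture and the hours since exposure therefore cannot be told apart. The study describes the 3 replicates of each group as biological. Its methods name fewer rats than there are libraries, however, and the labels do not tie libraries to animals. The p-values therefore measure the spread between these libraries, which may be technical.

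Fibroblasts of the meninges and of the perivascular space derive from mesoderm and neural crest and build the collagen-rich matrix of the brain's coverings. PDGF ligands act on their receptor tyrosine kinases, PDGFRA on fibroblasts and PDGFRB on fibroblasts and pericytes. Forkhead, T-box, ZIC, AP-2 and TWIST factors set the identity of such mesenchyme during development, and endothelial cells express few of these genes.

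The labelled cell type was checked against its markers. Of 24 endothelial markers listed, 22 were found in the table. Pecam1 and Abcb1a were not found by name, so their levels are unknown here. Of the 22, 15 were under 0.5 FPKM in the control group, and 5 were listed at 0 in all 15 libraries. Cdh5 and Cldn5, which encode the defining junction proteins of brain endothelium and are named here after their values were seen, had control means of 0.191 and 0.0109 FPKM. Slc2a1, the glucose transporter gene with the highest mean of the endothelial list, was at 23.6 FPKM. The summed level of the 22 genes ranged from 28.9 to 44.6 FPKM over the control libraries, while the 10 fibroblast identity genes together reached 1195 to 1251 FPKM. By control means, Slc2a1 made up most of the first sum, and Fbln1, Lum, Dcn and Zic1 most of the second. In bulk RNA, fewer cells of a type and less RNA per cell cannot be told apart.

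Low FPKM values lie on steps, and the size of a step gave the depth, 5.44 to 7.49 gigabases of aligned sequence in each library. Every member was well covered in most libraries, with a median over the libraries between 1703 reads of 150 bases for Twist1 and 60208 for Fbln1. The lowest was Foxc1, with 153 in 1 library. Libraries correlated over the tested genes with a Pearson's r of 0.963 to 0.975 within groups and 0.859 to 0.976 between groups.

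Promoter sequences show what surrounds the starts of genes that later behaved differently, a matrix gene that was lower in all 4 exposed groups (Lum), a factor whose level separated 12 h from 24 h (Twist1) and a receptor that passed no threshold (Pdgfra). RefSeq promoters on the rat assembly GRCr8 were matched by symbol for 5 of the 10 members, namely Pdgfra, Lum, Foxc1, Tbx18 and Twist1. Each sequence gives the 250 bases before the annotated start, 5′ to 3′ on the gene's strand, and capitals mark matches to a CCAAT box (CCAAT, or ATTGG on the other strand) or a GC box (GGGCGG, or CCGCCC on the other strand). Lum lies on the plus strand with this window at chr7:34245456-34245705, Twist1 on the plus strand at chr6:56402059-56402308, and Pdgfra on the minus strand at chr14:33408517-33408766.
Lum: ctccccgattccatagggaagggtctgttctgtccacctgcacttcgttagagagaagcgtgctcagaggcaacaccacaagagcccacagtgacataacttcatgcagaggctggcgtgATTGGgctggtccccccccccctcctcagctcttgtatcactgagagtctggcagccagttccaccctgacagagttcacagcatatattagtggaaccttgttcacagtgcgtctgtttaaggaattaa
Twist1: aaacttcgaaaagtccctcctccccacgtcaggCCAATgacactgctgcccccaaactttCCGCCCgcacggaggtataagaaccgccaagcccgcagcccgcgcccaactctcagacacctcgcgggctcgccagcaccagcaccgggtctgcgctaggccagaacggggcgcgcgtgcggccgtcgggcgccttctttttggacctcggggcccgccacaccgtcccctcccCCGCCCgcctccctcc
Pdgfra: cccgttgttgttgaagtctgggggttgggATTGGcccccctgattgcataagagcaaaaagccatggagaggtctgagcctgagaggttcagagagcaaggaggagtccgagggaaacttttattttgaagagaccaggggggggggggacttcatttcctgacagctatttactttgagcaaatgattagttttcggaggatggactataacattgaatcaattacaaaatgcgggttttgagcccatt

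A CCAAT box was found in all 5 promoters, against 34.0% of the 33469 promoters in the RefSeq table. It began 130 bases before the start in Lum, 221 in Pdgfra, 217 in Twist1, 101 in Foxc1 and 84 in Tbx18, and only in Twist1 was it on the gene's own strand. A GC box occurred 2 times in Twist1 and 1 time in Foxc1, against 30.5% of all promoters with at least 1. The TATA box (TATAAA, or TTTATA on the other strand) was in none of the 5 and in 12.9% of all promoters. The window of Twist1 held 69.2% G and C, Lum 52.8% and Pdgfra 47.2%, with a median of 51.2% over all promoters. These matches describe letters, not binding.

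In the control group the 10 genes spanned a wide range of FPKM, a scale that divides by transcript length. Fbln1, a secreted glycoprotein of basement membranes and elastic fibres, was highest at 502 ± 73.9 FPKM (SD, n = 3), a level above 99.4% of the tested genes. Lum and Dcn, small leucine-rich proteoglycans that bind collagen fibrils, followed at 207 ± 48.3 and 195 ± 22.9 FPKM, and their libraries overlapped. Zic1, a zinc finger factor of the meninges and the dorsal neural tube, reached 159 ± 8.22 FPKM. Both receptors were next, with Pdgfra at 52.1 ± 0.433 and Pdgfrb at 44.5 ± 2.90 FPKM, and did not overlap.

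The lower end of the order held the other factors. Twist1, a basic helix-loop-helix factor of mesenchyme, was at 24.6 ± 1.55 FPKM. Tfap2b, an AP-2 factor of neural crest derivatives, was at 13.5 ± 1.52 FPKM, Foxc1, a forkhead factor needed for the meninges, at 12.2 ± 9.18, and Tbx18, a T-box factor of mural cells and fibroblasts, at 10.8 ± 3.41. The libraries of neighbours in this last series overlapped, so the order of Tfap2b, Foxc1 and Tbx18 was within their spread. Tbx18, the lowest of the 10, was still above 65.2% of the tested genes.

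**Figure D1:**
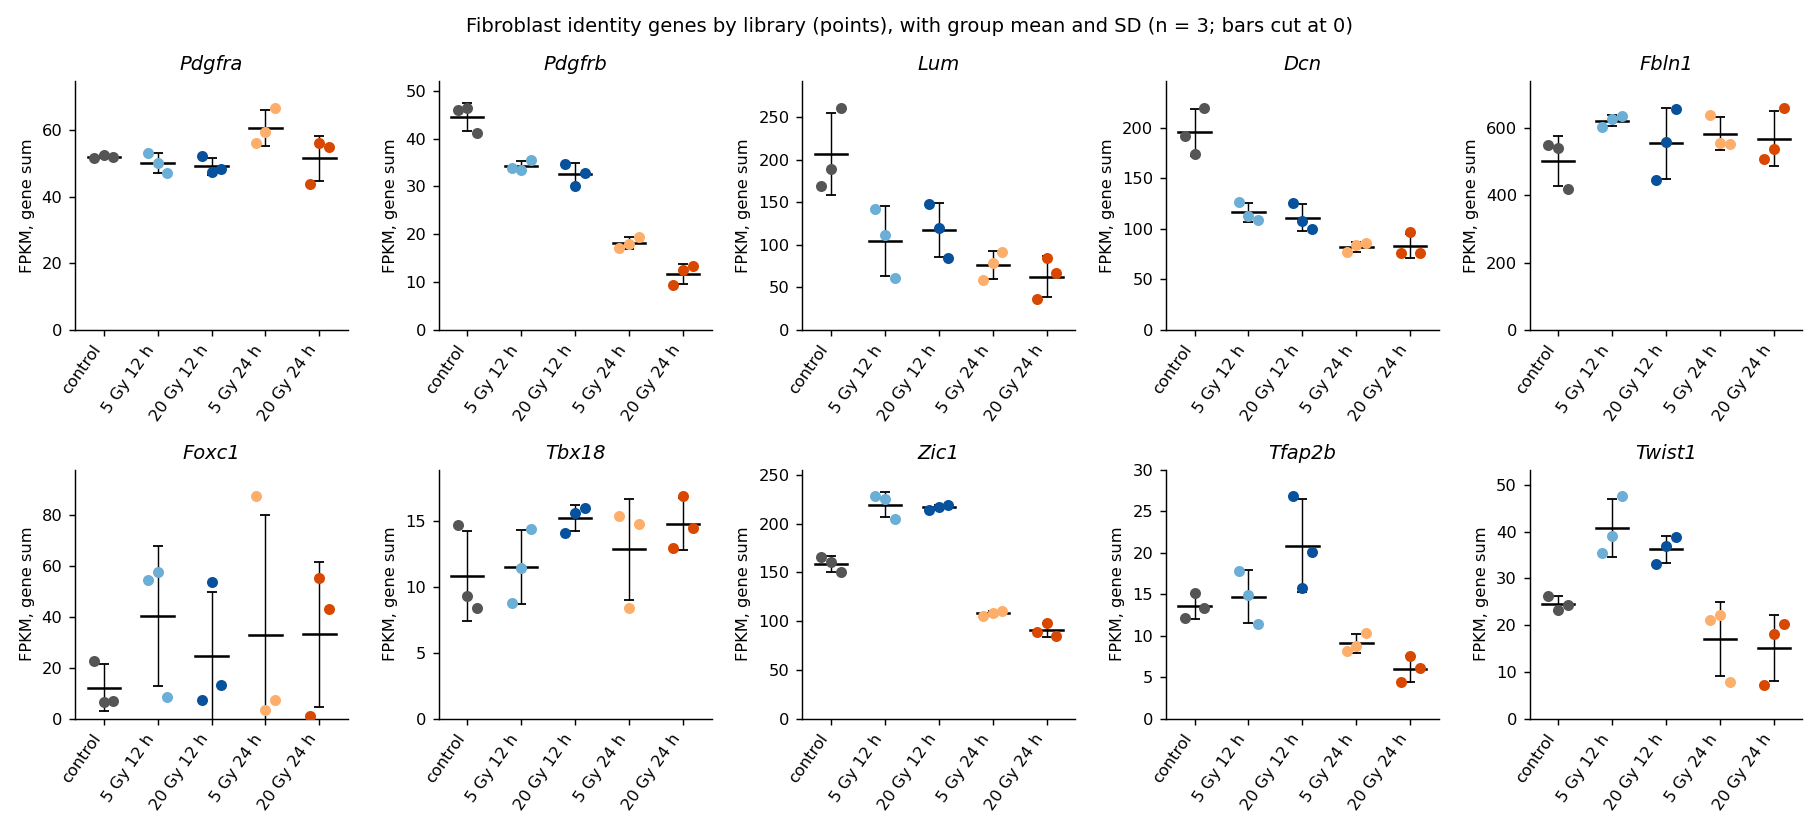
FPKM summed per gene for the 10 fibroblast identity genes, with 1 point per library, the group mean as a horizontal line and the SD as a bar (n = 3, bars cut at 0). Pdgfrb, Lum and Dcn were lower in all exposed groups than in the control group, Zic1 and Twist1 were above the control libraries at 12 h and below them at 24 h, and single Foxc1 libraries ran from 0.903 to 87.3 FPKM.

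The 4 exposed groups were each set against the controls by limma on log2(FPKM + 1), and these comparisons share the same 3 control libraries. A gene was called when its Benjamini-Hochberg adjusted p was under 0.05 and it differed by at least 1.5-fold. On this scale the change of low genes is understated. At 12 h, 1 of the 10 members, Dcn, was called lower after 5 Gy and also after 20 Gy, and none was called higher. Over all tested genes 9.94% were called after 5 Gy, 4.98% higher and 4.96% lower, and 8.54% after 20 Gy, 4.90% higher and 3.64% lower, so 1 of 10 was near the background. At 24 h, 3 members were called after 5 Gy (Pdgfrb, Lum and Dcn) and 5 after 20 Gy (these and Zic1 and Tfap2b), all lower. The background was 41.3% after 5 Gy, with 20.5% higher and 20.8% lower, and 40.3% after 20 Gy, with 17.0% higher and 23.3% lower. With both directions counted together, the members' shares were thus below the background after 5 Gy and little above it after 20 Gy. Counted as lower alone, 3 of 10 stood against 20.8% after 5 Gy and 5 of 10 against 23.3% after 20 Gy. Counted as higher, 0 of 10 stood against 20.5% and 17.0%.

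The median log2 fold change of the members was 0.10 in the 5 Gy 12 h group, 0.29 in the 20 Gy 12 h group, -0.54 in the 5 Gy 24 h group and -0.79 in the 20 Gy 24 h group. Over all tested genes it was 0.03, 0.01, -0.05 and -0.14 in the same comparisons. Control and exposed libraries did not overlap in 6 members at 12 h after each dose, in 8 of the 5 Gy 24 h group and in 6 of the 20 Gy 24 h group. The same held for 38.5%, 36.8%, 67.4% and 62.7% of all tested genes in that order.

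**Figure D2:**
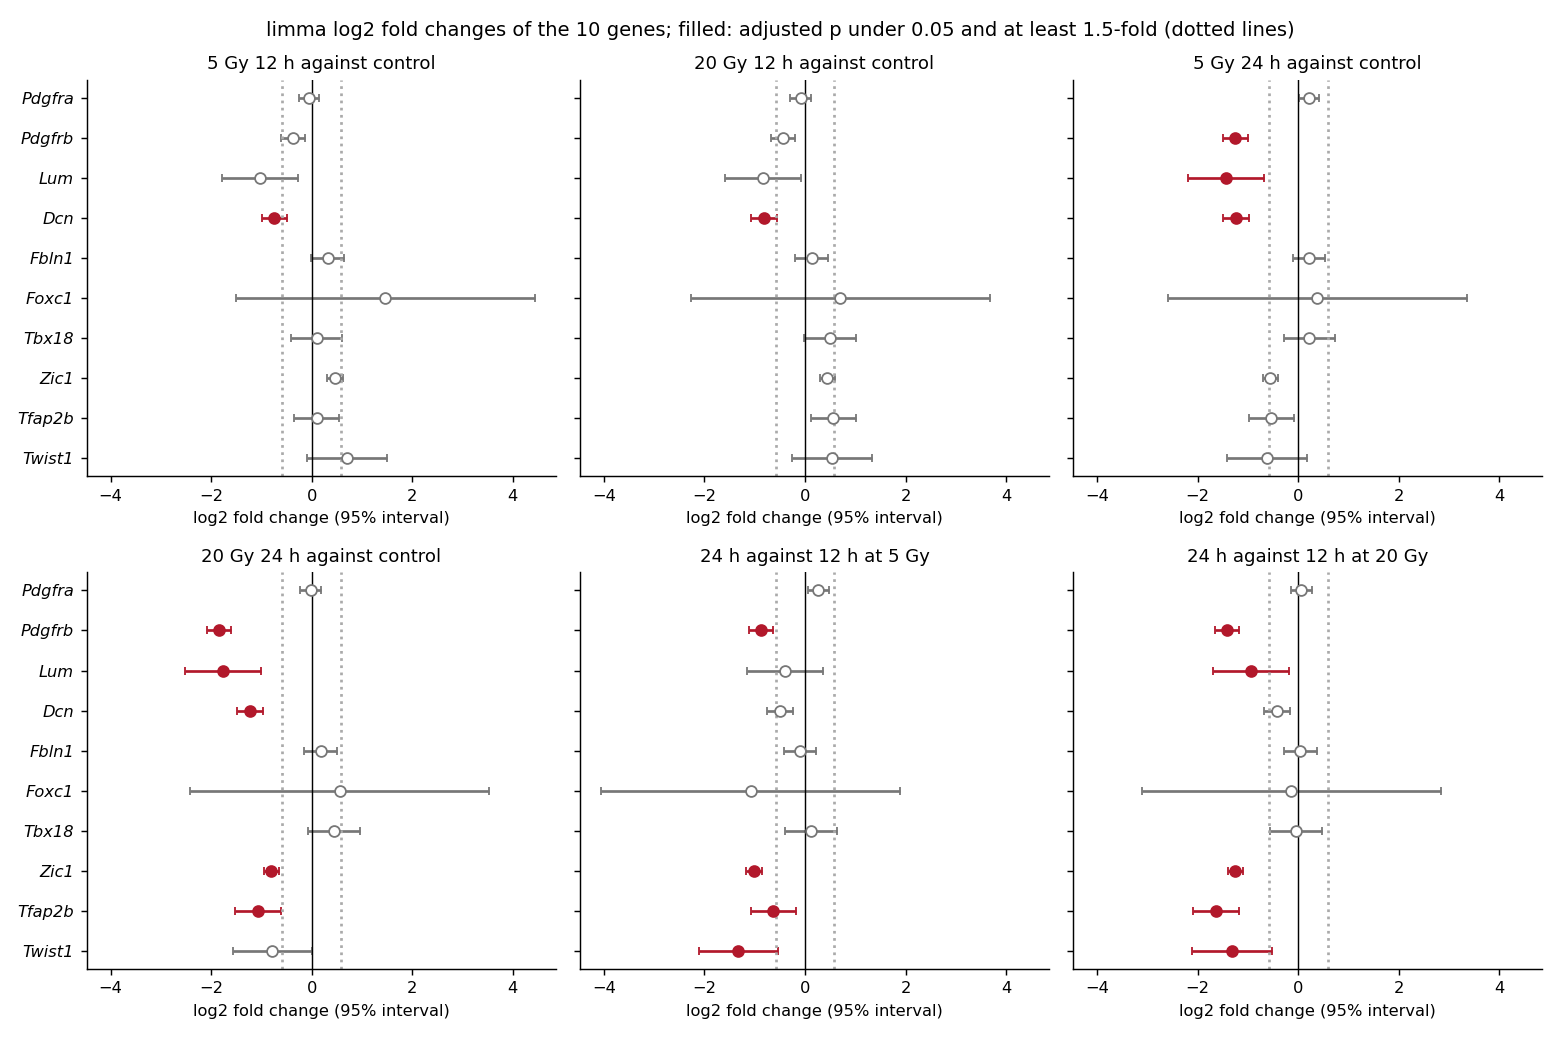
log2 fold changes of the 10 genes from limma on log2(FPKM + 1), with 95% intervals, for the 4 comparisons with the control group and for 24 h against 12 h within each dose. Filled points passed an adjusted p of 0.05 and 1.5-fold (dotted lines), and all of them lie below 0.

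Pdgfrb, a receptor of PDGF-B and PDGF-D, was lower than control in all 4 exposed groups and lowest at 24 h after 20 Gy. Its locus lies on chromosome 18, plus strand, at 56364620 to 56406381 of Rnor_6.0, the build of the table. The control libraries were at 45.9, 46.5 and 41.2 FPKM, the 5 Gy 12 h libraries at 33.9, 33.4 and 35.4, and the 20 Gy 12 h libraries at 34.7, 30.0 and 32.9. At 24 h they were at 17.1, 18.003 and 19.4 after 5 Gy and at 9.35, 12.5 and 13.4 after 20 Gy. All exposed libraries were below all controls, and neither 24 h group overlapped with either 12 h group. The log2 differences from control at 12 h were -0.37 after 5 Gy and -0.44 after 20 Gy, with adjusted p of 0.0353 and 0.0166 in limma, both under 1.5-fold. At 24 h Pdgfrb fell by 1.25 on the log2 scale after 5 Gy (SE 0.11, adjusted p = 9.47e-07 in limma) and by 1.85 after 20 Gy (SE 0.11, adjusted p = 3.71e-08).

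Pdgfrb was also the only member called between the doses. At 24 h it was lower after 20 Gy than after 5 Gy, with a log2 difference of -0.60 (95% interval -0.84 to -0.36, adjusted p = 0.00983 in limma), and the libraries of both doses did not overlap. Of all tested genes 2.42% were called in this comparison, 1.46% lower, and 23.2% did not overlap, as against 3 of the members. Without replicate 1 of 20 Gy at 24 h the difference was -0.46 (adjusted p = 0.0172), and without replicate 3 of 5 Gy at 24 h it was -0.55 (adjusted p = 0.0462), both under 1.5-fold. It was also not called in a limma fit of these 2 groups alone (adjusted p = 0.156) or after quantile normalization, where it was -0.50.

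Most of the Pdgfrb signal came from 1 of the 13 transcripts of the locus. The assembled transcript MSTRG.10975.3, with 22 exons, made up 55.4% of the control sum at 24.7 ± 3.89 FPKM and 60.4% at 24 h after 20 Gy, at 7.07 ± 1.27 FPKM. The annotated transcript ENSRNOT00000068535, with 23 exons, was at 6.85 ± 0.638 FPKM in the control group and 0.205 ± 0.0702 at 24 h after 20 Gy, so that its share went from 15.4% to 1.78%. It fell by 2.70 on the log2 scale (limma over 41932 transcripts, adjusted p = 0.00102), and MSTRG.10975.3 fell by 1.67 (adjusted p = 8.56e-06). The other full-length annotated form, ENSRNOT00000086033, had 5.42 ± 1.32 and 2.73 ± 0.646 FPKM and did not pass (log2 difference -0.78, adjusted p = 0.131). How a program divides reads among overlapping transcripts is uncertain, so the gene sum is the firmer value.

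Pdgfra, a receptor of PDGF-A and PDGF-C, did not pass the threshold in any comparison. It lies on chromosome 14, minus strand, at 35527927 to 35581031, and its single summed transcript has 23 exons and 6514 bases. The control libraries were at 51.7, 52.6 and 52.0 FPKM, those at 12 h at 53.2, 50.3 and 47.1 after 5 Gy and 52.1, 47.3 and 48.3 after 20 Gy. At 24 h they were at 56.1, 59.4 and 66.8 after 5 Gy and 43.8, 56.1 and 54.8 after 20 Gy. At 24 h after 20 Gy the difference from control was -0.02 on the log2 scale with a 95% interval of -0.23 to 0.19, so a change of 1.5-fold lay outside it, while at 24 h after 5 Gy all libraries were above control, by 0.21 (0.01 to 0.42, adjusted p = 0.0707 in limma). The level at 24 h after 5 Gy was above that at 12 h by 0.27 (adjusted p = 0.0307), which is under 1.5-fold.

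The Pdgfra locus held 9 further rows that the choice of rows left out, because the locus carries a second gene name. They are assembled transcripts and ENSRNOT00000079829, an annotated transcript of 70 bases that carries the second name. With these rows, the control mean was 81.2 ± 6.16 FPKM and that at 24 h after 20 Gy 78.4 ± 9.12. This sum, added after seeing the data, was not called in any comparison either. Over the 15 libraries Pdgfra and Pdgfrb had a Pearson's r of -0.18 on log2 values.

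Among the PDGF ligands, all 4 were tested. Pdgfa, which signals through PDGFRA, had 6.95 FPKM in the control group and fell to 2.77 at 24 h after 5 Gy (log2 -1.07, adjusted p = 2.19e-05 in limma) and to 3.13 after 20 Gy (-0.96, adjusted p = 5.97e-05). Pdgfc, another PDGFRA ligand, rose at 12 h after 5 Gy, from 17.5 to 28.5 FPKM (0.67, adjusted p = 0.000114). Pdgfd, a PDGFRB ligand, rose from 6.25 to 11.1 FPKM at 12 h after 20 Gy (0.75, adjusted p = 0.0217) and to 12.7 at 24 h after 5 Gy (0.93, adjusted p = 0.00136). Of the 4, the counts were 1 higher and 0 lower at 12 h after each dose, 1 higher and 1 lower at 24 h after 5 Gy, and 0 higher and 1 lower at 24 h after 20 Gy. Among all tested genes, 4.98% and 4.90% were called higher at 12 h after 5 Gy and 20 Gy, and 20.5% and 17.0% at 24 h. Called lower were 4.96%, 3.64%, 20.8% and 23.3% in the same order.

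Lum and Dcn are neighbours on chromosome 7, both on the plus strand, with Dcn at 38742051 to 38782323 and Lum at 38819771 to 38826862, 37.45 kb apart. Both proteoglycan genes were lower in all 4 exposed groups than in any control library. Dcn was at 192, 174 and 219.9 FPKM in the controls, and at 12 h at 127, 113 and 109 after 5 Gy and 126, 108 and 100.0 after 20 Gy. At 24 h it was at 76.9, 84.1 and 85.8 after 5 Gy and 75.9, 96.5 and 76.0 after 20 Gy. Its SDs, between 4.70 and 22.9 FPKM, were small beside these differences.

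Dcn was the only member called at every time and dose. It fell by 0.74 on the log2 scale in the 5 Gy 12 h group (SE 0.12, adjusted p = 0.00096 in limma), by 0.81 in the 20 Gy 12 h group (adjusted p = 0.000655), and by 1.23 at 24 h after each dose (adjusted p = 1.95e-06 and 2.12e-06). From 12 h to 24 h it was lower by less than 1.5-fold, with log2 differences of -0.49 at 5 Gy (adjusted p = 0.00345) and -0.42 at 20 Gy (adjusted p = 0.0088). The doses differed by 0.00 at 24 h, with a 95% interval of -0.26 to 0.26. Its annotated transcript, ENSRNOT00000006070 with 8 exons, carried 92.0% of the control sum and was called lower in all 4 comparisons with control.

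Lum showed a wider spread. Its control libraries were at 169.5, 189.6 and 261 FPKM, those at 12 h at 142, 111 and 60.5 after 5 Gy and 148, 119.8 and 84.2 after 20 Gy. At 24 h they were at 58.5, 78.3 and 91.1 after 5 Gy and 36.9, 84.6 and 66.7 after 20 Gy. The 12 h and 24 h libraries overlapped. Lum, 1 transcript of 3 exons and 2015 bases, fell by 1.43 on the log2 scale at 24 h after 5 Gy (SE 0.35, adjusted p = 0.00334 in limma) and by 1.76 after 20 Gy (adjusted p = 0.000814).

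At 12 h the Lum differences did not pass, at -1.04 after 5 Gy (95% interval -1.79 to -0.28, adjusted p = 0.0565 in limma) and -0.83 after 20 Gy (adjusted p = 0.131). Replicate 1 of 5 Gy at 12 h decided the first of these: without it Lum was called, at -1.30 (adjusted p = 0.0336). From 12 h to 24 h at 20 Gy Lum fell by 0.93 (adjusted p = 0.0377). This call was lost without replicate 1 of 20 Gy at 24 h (-0.60, adjusted p = 0.172) or replicate 3 (adjusted p = 0.0539), and without replicate 1 or 2 of 20 Gy at 12 h (adjusted p = 0.131 and 0.0884). It was also lost with the replicate number as a block (adjusted p = 0.0528).

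Of the other small leucine-rich proteoglycans, 7 of 9 found in the table were tested, and 4 were called lower at 24 h after each dose, none higher. At 12 h 1 of the 7 was called lower after each dose. The share of all tested genes called lower was 4.96% and 3.64% at 12 h after 5 Gy and 20 Gy, and 20.8% and 23.3% at 24 h. Bgn (biglycan), the highest of them, fell from 1017 FPKM in the control group to 680.1 at 24 h after 20 Gy (log2 -0.61, adjusted p = 0.0121 in limma), and Epyc (epiphycan), Chad (chondroadherin) and Omd (osteomodulin) fell by 1.14, 0.98 and 0.76. The list's median log2 difference at 24 h after 20 Gy was -0.76, against -0.14 over all genes.

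Fbln1 did not pass in any comparison. Its 2 annotated transcripts, on chromosome 7 at 126096793 to 126176468, had summed levels of 550.1, 539.6 and 417 FPKM in the controls and 603, 626 and 634 in the 5 Gy 12 h group. They were at 445, 559 and 657 in the 20 Gy 12 h group, at 638, 555 and 551 in the 5 Gy 24 h group, and at 506, 536 and 659 in the 20 Gy 24 h group. Both 5 Gy groups were above all controls and both 20 Gy groups overlapped them. At 24 h after 20 Gy the log2 difference was 0.18 with a 95% interval of -0.15 to 0.50, and the largest, 0.32 at 12 h after 5 Gy, had an interval of -0.01 to 0.64 that includes 1.5-fold. The larger share was that of ENSRNOT00000088042, 67.0% of the control sum and 69.3% at 24 h after 20 Gy.

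Among the other fibulins 4 of 5 were tested. Efemp2, which helps to assemble elastic fibres, fell from 354 to 203 FPKM at 24 h after 5 Gy (log2 -0.80, adjusted p = 0.00276 in limma) and to 181 after 20 Gy (adjusted p = 0.000537). Efemp1 had 351 FPKM in the control group and 270.4 at 24 h after 20 Gy and was not called (-0.37, under 1.5-fold). No other fibulin was called at 24 h against control. At 12 h after 20 Gy 1 of the 4 was called higher, Fbln2, named here after its values were seen, which rose from 1.17 to 2.80 FPKM (log2 0.80, adjusted p = 0.00387). In that comparison 4.90% of all tested genes were called higher.

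The transcription factors fell into 3 patterns. Zic1 and Twist1 were above the control libraries at 12 h and below them at 24 h. Tfap2b was above them at 12 h after 20 Gy, overlapped with them at 12 h after 5 Gy, and was below them at 24 h. Foxc1 and Tbx18 overlapped with the controls in every exposed group. Zic1 had the tightest libraries, at 166, 161 and 150.1 FPKM in the controls, 228, 226 and 205 in the 5 Gy 12 h group and 214, 217 and 219 in the 20 Gy 12 h group. At 24 h they were at 106, 108 and 110.3 after 5 Gy and 89.3, 98.3 and 84.6 after 20 Gy. No group of Zic1 libraries overlapped with the control group.

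Zic1, on chromosome 8, minus strand, with its annotated transcript at 98734295 to 98738446, was above control at 12 h by 0.46 on the log2 scale after 5 Gy (SE 0.07, adjusted p = 0.000668 in limma) and by 0.44 after 20 Gy (adjusted p = 0.00105), both under 1.5-fold. At 24 h after 5 Gy it was below control, with a log2 difference of -0.55 (adjusted p = 2.11e-05), also under 1.5-fold, and without control replicate 3 the difference was -0.59 and passed (adjusted p = 4.8e-05). At 24 h after 20 Gy it fell by 0.81 (adjusted p = 8.83e-07), and after quantile normalization the difference was -0.56, under 1.5-fold. From 12 h to 24 h Zic1 fell by 1.01 at 5 Gy (adjusted p = 1.61e-07) and by 1.25 at 20 Gy (adjusted p = 2.87e-08).

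Twist1 followed the same course with more spread. Its libraries were at 26.3, 23.2 and 24.3 FPKM in the control group, 35.4, 39.1 and 47.5 in the 5 Gy 12 h group and 33.1, 36.8 and 38.8 in the 20 Gy 12 h group. At 24 h they were at 21.0, 22.1 and 7.92 after 5 Gy and 7.13, 18.1 and 20.2 after 20 Gy, with 1 library in each group far under the others. No exposed library lay within the control range. No comparison with control passed: the log2 differences were 0.70 and 0.54 at 12 h and -0.63 and -0.78 at 24 h, with adjusted p from 0.0833 to 0.36 in limma. From 12 h to 24 h Twist1 fell by 1.32 at each dose (SE 0.37, adjusted p = 0.00804 at 5 Gy and 0.0082 at 20 Gy). Without replicate 1 of 20 Gy at 24 h the difference from control at that point was -0.34 (adjusted p = 0.381) and the change from 12 h to 24 h was -0.88 (adjusted p = 0.0364), and without replicate 3 of 5 Gy at 24 h the change from 12 h to 24 h at 5 Gy was -0.88 (adjusted p = 0.0333). Without replicate 3 of 20 Gy at 24 h the difference from control was -1.04 and passed (adjusted p = 0.0409), and in a fit of the control and 5 Gy 12 h groups alone the 0.70 at 12 h passed (adjusted p = 0.0164).

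Tfap2b was at 12.1, 15.1 and 13.4 FPKM in the controls, 17.8, 14.9 and 11.4 in the 5 Gy 12 h group and 26.8, 15.7 and 20.1 in the 20 Gy 12 h group. At 24 h it was at 8.12, 8.72 and 10.4 after 5 Gy and 4.44, 7.54 and 6.06 after 20 Gy. The 20 Gy 12 h group was above all controls. Both 24 h groups were below all controls and did not overlap with each other. At 24 h after 20 Gy Tfap2b fell by 1.07 on the log2 scale (SE 0.21, adjusted p = 0.000699 in limma), and its log2 change from 12 h to 24 h at 20 Gy was -1.63 (adjusted p = 2.87e-05). At 24 h after 5 Gy the difference from control was -0.53 (adjusted p = 0.0425, under 1.5-fold), and from 12 h to 24 h at 5 Gy it fell by 0.63 (adjusted p = 0.0214). The study lists Tfap2b as upregulated at 24 h after 20 Gy, by tests that were not analysed here. Elsewhere it places Tfap2b in a falling expression pattern after both doses.

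Single libraries decided several Tfap2b calls near the threshold. The difference from control at 24 h after 5 Gy passed without control replicate 1 (-0.60, adjusted p = 0.048 in limma) or replicate 3 of 5 Gy at 24 h (-0.62, adjusted p = 0.0412). The difference of 0.56 at 12 h after 20 Gy (adjusted p = 0.0857) passed without replicate 2 of that group, at 0.74 (adjusted p = 0.0437). The fall from 12 h to 24 h at 5 Gy was lost without replicate 1 or 2 of 5 Gy at 12 h (-0.49 and -0.61, adjusted p = 0.0921 and 0.0558) and without replicate 1 or 2 of 5 Gy at 24 h (-0.56 and -0.61, adjusted p = 0.0712 and 0.0562).

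The 11 transcripts of the Tfap2b locus, on chromosome 9, plus strand, at 25410669 to 25440411, did not move together. The annotated ENSRNOT00000030912 was at 5.91 ± 1.37 FPKM in the controls, 43.6% of the gene sum, and after 5 Gy and 20 Gy at 1.31 and 1.16 by 12 h, then at 0.108 and 0.187 by 24 h. It was called lower in all 4 comparisons, by 1.67, 1.80, 2.63 and 2.56 on the log2 scale, the last with an adjusted p of 0.000747 in limma over all transcripts. The other annotated form, ENSRNOT00000090920, was at 0.510 ± 0.410 FPKM, 4.02% of the control sum, and at 3.74 ± 1.13 at 24 h after 20 Gy, 63.2% of the sum. That difference, 1.66, did not pass (adjusted p = 0.247), and single libraries of this form ran from 0.413 to 15.8 FPKM at 12 h after 20 Gy. The division of reads among these overlapping transcripts is uncertain too.

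Tbx18, on chromosome 8, minus strand, at 95359354 to 95387363, did not pass as a gene sum. Its libraries were at 14.7, 9.30 and 8.38 FPKM in the controls, 8.75, 11.4 and 14.4 in the 5 Gy 12 h group, and 14.1, 15.6 and 15.9 in the 20 Gy 12 h group. At 24 h they were at 15.3, 8.40 and 14.7 after 5 Gy and 12.9, 16.8 and 14.4 after 20 Gy, and all 4 exposed groups overlapped with the controls. The log2 difference at 24 h after 20 Gy was 0.45 (95% interval -0.07 to 0.96, adjusted p = 0.125 in limma), and it passed without control replicate 1, at 0.67 (adjusted p = 0.0292). Aligned bases per gene, which are not divided by transcript length, showed less of a rise. By them Tbx18 differed from control by -0.01 at 24 h after 5 Gy, and 20 Gy differed from 5 Gy at 24 h by 0.04. The gene sum gave 0.22 for each of these.

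The FPKM assigned to single transcripts of Tbx18 moved in opposite directions. The annotated ENSRNOT00000014657, with 8 exons, was at 2.24 ± 0.561 FPKM in the controls, 21.0% of the sum, and rose to 8.76 ± 1.68 at 24 h after 20 Gy, 59.5% of the sum (log2 1.59, adjusted p = 0.0107 in limma over all transcripts). The assembled MSTRG.22891.4 fell from 4.95 ± 1.13 to 1.93 ± 0.855 FPKM (-1.05, adjusted p = 0.0324). The libraries of both transcripts did not overlap between these 2 groups. The assembled MSTRG.22891.2 of the same locus ran from 0.474 to 7.82 FPKM within the controls. How reads were divided among these overlapping transcripts is uncertain.

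Foxc1, on chromosome 17, minus strand, with its annotated transcript at 33947506 to 33951484, varied more within groups than between them. The assembled transcripts in its sum reach to 33960557. It was at 22.8, 6.69 and 7.06 FPKM in the controls, 54.5, 57.6 and 8.46 in the 5 Gy 12 h group and 7.16, 53.5 and 13.2 in the 20 Gy 12 h group. At 24 h it was at 87.3, 3.33 and 7.49 after 5 Gy and 0.903, 55.2 and 43.1 after 20 Gy. With an SE of 1.37 the log2 differences were not resolved, and the 95% interval at 24 h after 20 Gy ran from -2.41 to 3.53.

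Much of the spread lay in 1 transcript. The annotated, single-exon ENSRNOT00000023957 was at 46.4 to 54.1 FPKM in 5 libraries of the exposed groups, at 4.70 and 5.98 in another 2, and at 0.0160 or less in the other 8, which include all 3 controls. Of these 8, 2 were listed at 0. The assembled transcript MSTRG.10032.6 held 34.1 FPKM in replicate 1 of 5 Gy at 24 h and was listed at 0 in the other 14 libraries. As aligned sequence, which is not divided by transcript length, Foxc1 also ranged widely, from 153 to 15529 reads of 150 bases over the libraries. The cause of the spread was not tested.

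**Figure D3:**
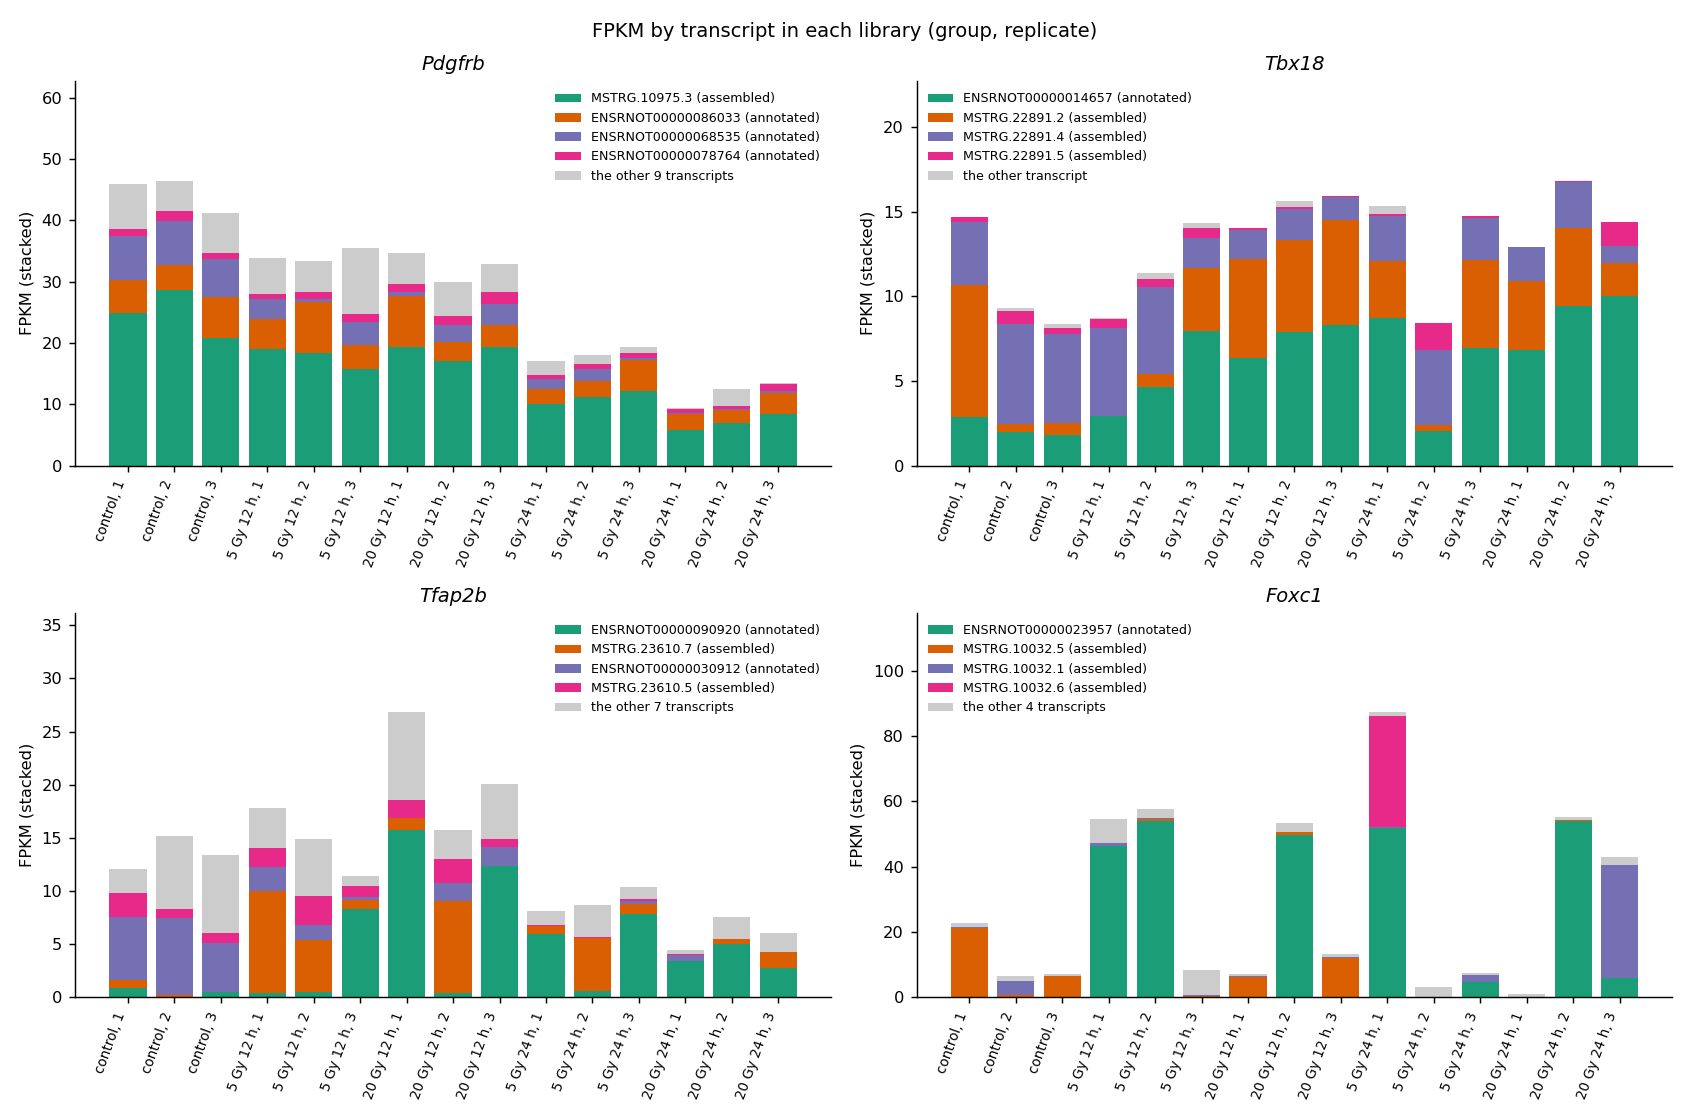
FPKM by transcript, stacked to the gene sum, in each of the 15 libraries for Pdgfrb, Tbx18, Tfap2b and Foxc1, with transcripts beyond the 4 highest in grey. MSTRG.10975.3 made up most of Pdgfrb in the control group (55.4%), and the annotated Foxc1 transcript was high in 5 libraries only.

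Of the other mesenchymal transcription factors, 19 of 32 found were tested. At 12 h, 4 were called higher and 0 lower after 5 Gy, and 2 higher and 1 lower after 20 Gy. At 24 h it was 4 higher and 6 lower after 5 Gy, and 3 higher and 7 lower after 20 Gy. The shares of all tested genes called higher were 4.98% and 4.90% at 12 h after 5 Gy and 20 Gy, and 20.5% and 17.0% at 24 h. Those called lower were 4.96%, 3.64%, 20.8% and 23.3% in the same order. Foxc2, the close relative of Foxc1, rose from 52.8 to 82.5 FPKM at 12 h after 5 Gy (log2 0.63, adjusted p = 0.0251 in limma) and fell to 12.9 and 10.5 FPKM at 24 h after 5 Gy and 20 Gy (-1.94 and -2.22, adjusted p = 1.18e-06 and 4.08e-07). Foxd1, another forkhead factor, fell from 37.6 to 6.13 FPKM (-2.46) and Meox2, a homeobox factor, by 2.02 at 24 h after 20 Gy. Osr1, the highest of the list at 124 FPKM in the controls, rose to 244 at 12 h after 5 Gy (0.97, adjusted p = 0.000147) and had 85.1 FPKM at 24 h after 20 Gy (-0.53, under 1.5-fold).

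Of 31 other markers of meningeal and perivascular fibroblasts, 24 were tested, and 5 were under 0.5 FPKM in the control group. These 5 are named here after their values were seen. Slc6a13 and Aldh1a2 were listed at 0 in all libraries, and Slc22a6 at 0 in the control group. Col15a1 and Slc13a3 had control means of 0.0612 and 0.0591 FPKM. Of the 24 tested markers, 3 were called lower at 12 h after each dose. At 24 h 10 were called lower after 5 Gy and 12 after 20 Gy, with none higher in any of the 4 comparisons. Over all tested genes 4.96% and 3.64% were called lower at 12 h after 5 Gy and 20 Gy, and 20.8% and 23.3% at 24 h. Called higher were 4.98%, 4.90%, 20.5% and 17.0% in the same order. Their median log2 difference at 24 h after 20 Gy was -0.85. Col1a1 and Col1a2, the chains of type I collagen, went from 516 to 31.4 FPKM (-4.03) and from 414 to 30.7 (-3.78) at 24 h after 20 Gy, and Col3a1, type III collagen, from 535 to 36.6 (-3.85). Mgp, an inhibitor of calcification and the highest gene of the list, fell from 1946 to 756 FPKM (-1.37, adjusted p = 8.19e-06 in limma). Igfbp2, which binds insulin-like growth factors, had 327 and 425 FPKM in these groups and was not called.

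Markers of other cell types moved beside these results. Summed over the 16 mural markers found, the level ranged from 138 to 162 FPKM in the controls and 67.2 to 114 at 24 h after 20 Gy. Of 8 mural markers tested there, 2 were called higher and 2 lower, against 17.0% and 23.3% of all tested genes. Anpep, a pericyte peptidase, fell from 96.7 to 47.3 FPKM and Cspg4, the NG2 proteoglycan, from 14.7 to 6.59, while Myh11, smooth muscle myosin, rose from 0.0608 to 1.18. The defining pericyte genes Rgs5, Kcnj8 and Abcc9, named after their values were seen, were at a mean of 0.0383 FPKM or listed at 0 in the control group. The astrocyte list summed to 518 to 765 FPKM in the controls and 324 to 398 at 24 h after 20 Gy, nearly all of it Gja1 (connexin 43). Aldh1l1, a folate enzyme and the next highest of that list, rose in all 4 exposed groups, from 9.52 to 23.7 FPKM at 24 h after 20 Gy (log2 1.20, adjusted p = 0.000175 in limma), while Aqp4 was listed at 0 and Gfap was at 0.119 FPKM. The endothelial list ranged from 28.9 to 44.6 FPKM in the controls and from 24.3 to 26.7 at 24 h after 20 Gy. Single genes made up most of the next 3 sums. The microglia list ranged from 21.2 to 25.2 and from 8.57 to 13.3 FPKM in the same groups, of which Tmem119 was 23.1 and 11.3, while Cx3cr1 and Ptprc, named after their values were seen, were listed at 0 in all libraries. The neuron list ranged from 60.99 to 74.8 and from 22.4 to 40.2 FPKM, of which Stmn2 was 58.7 and 20.4, while Syt1 had 6.68 and 9.18 and was not called. The epithelial list ranged from 25.3 to 28.6 and from 14.5 to 15.4 FPKM, in which Krt8 fell from 25.2 to 12.6 and Cdh1 rose from 1.22 to 2.42 (log2 0.60, adjusted p = 0.0148 in limma). The oligodendrocyte list was under 1 FPKM in every control library. Their part in the changes of the 10 genes was not tested.

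**Figure D4:**
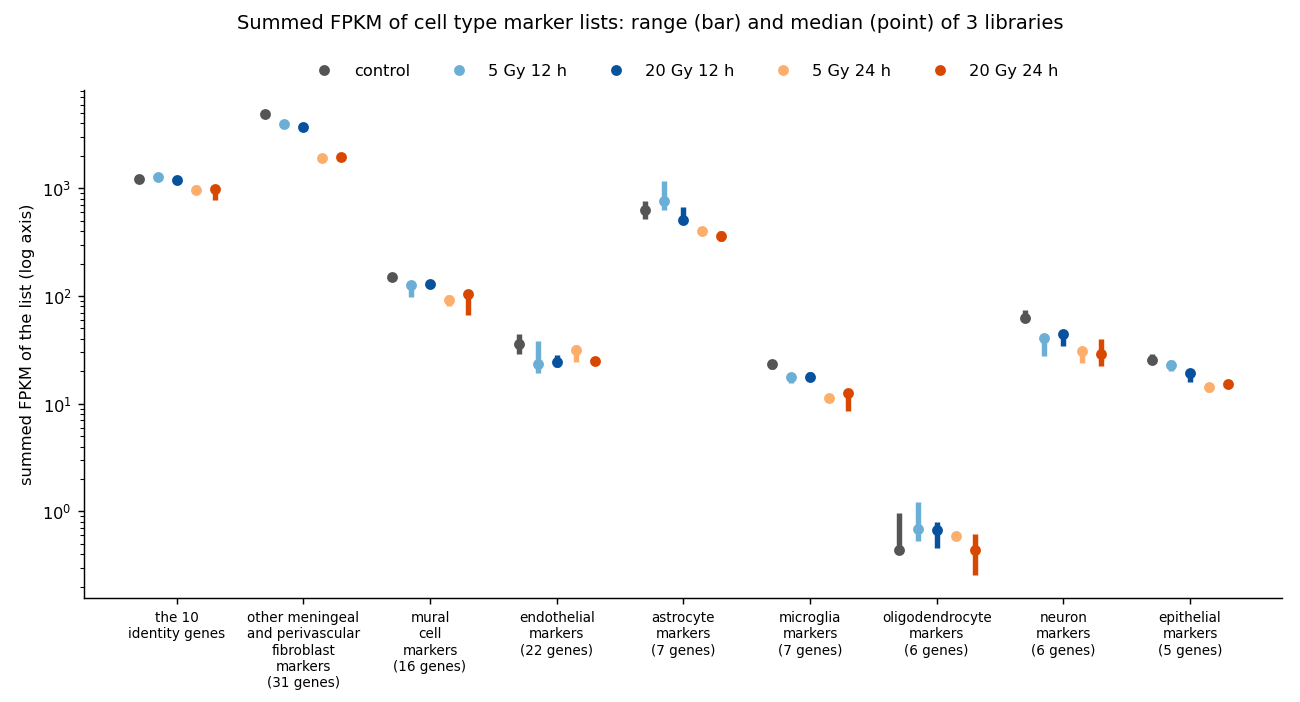
Summed FPKM of each marker list on a log axis, with the median of 3 libraries as a point and their range as a bar, by group. The 10 identity genes and the other fibroblast markers were far above the endothelial list in every group, and the other fibroblast markers ranged from 4805 to 5022 FPKM in the controls and 1839 to 2052 at 24 h after 20 Gy.

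Within a dose, 24 h was compared with 12 h, a contrast that uses no control library. At 5 Gy 4 members were called (Pdgfrb, Zic1, Tfap2b and Twist1) and at 20 Gy 5 (these and Lum), all lower, against 36.4% of all tested genes called at 5 Gy (19.3% lower) and 36.3% at 20 Gy (22.1% lower). The libraries of both times did not overlap in 6 members at 5 Gy and 5 at 20 Gy, and in 62.8% and 59.0% of all tested genes. Pdgfrb fell by 0.88 at 5 Gy (adjusted p = 2.41e-05 in limma) and by 1.41 at 20 Gy (adjusted p = 4.62e-07). The median of the members was -0.56 at 5 Gy and -0.68 at 20 Gy, against -0.08 and -0.15 over all tested genes. Pdgfra, Fbln1, Foxc1 and Tbx18 were not called at either dose.

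Between the doses at 12 h, 0 of the 10 members were called by limma, 1 had an unadjusted p under 0.05, and 0.123% of all genes were called. At 24 h the only call was that of Pdgfrb. Whether the change from 12 h to 24 h differed between the doses was tested as an interaction in limma. Of the members 0 passed, 3 had an unadjusted p under 0.05, and 0.553% of all genes passed. Those 3 were Tfap2b at -1.01 (adjusted p = 0.162), Pdgfrb at -0.53 (adjusted p = 0.167) and Zic1 at -0.24 (adjusted p = 0.331).

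Over the 15 libraries, which share the 5 groups and so the large steps between them, some members varied together. The highest Pearson's r between members on log2 values were 0.90 for Lum and Dcn, 0.89 for Zic1 and Tfap2b, and 0.83 for Pdgfrb with Zic1 and with Dcn. Among 9553 genes with a mean of at least 5 FPKM, the gene most like Pdgfrb was Ncdn (r = 0.99), that most like Zic1 was Sv2a (0.99), that most like Lum was Fam114a1 (0.99) and that most like Dcn was Tmem97 (0.98). For Tfap2b it was Slc25a35 (0.94), for Pdgfra Tgfbr3 (0.92), for Twist1 Smarcd2 (0.92) and for Fbln1 Cpz (0.88). Tbx18 and Foxc1 had the weakest partners, Pax9 (0.81) and Timp4 (0.79).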

How the data were processed

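RNA of cultured rat BMECs was sequenced in 15 libraries with reads of 150 bases. Per the labels and the study's methods, the authors mapped reads with HISAT2 2.0.13, converted them with samtools 1.9 and assembled transcripts with StringTie 1.3.5 on Rnor_6.0, then deposited 1 table of FPKM per transcript. The authors' Kallisto counts and edgeR tests were not analysed here. Neither were 4738 transcripts of loci with several names, apart from those in the wider Pdgfra sum.

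FPKM were summed per gene and tested as log2(FPKM + 1) with limma 3.58.1 (R 4.3.3) on genes with a mean of at least 0.5 FPKM, with 1 mean per group, 10 residual degrees of freedom, a trended variance prior and two-sided Benjamini-Hochberg adjusted p. Pseudocount and filter understate changes of low genes. The steps were tested on simulated data, and tables were handled with Python 3.11.15, pandas 2.3.3, numpy 2.4.6 and matplotlib 3.10.9. Depth was read from low FPKM values, of which 83.8 to 88.0% were whole multiples of 1 step (tolerance 0.1). FPKM keep no counts, so no counting intervals are given, and a 95% interval is limma's.

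The members and gene lists were chosen with earlier results of these data known. Named are all 10 members, their transcripts with a mean of at least 0.5 FPKM, and, from each other list, at most the 3 highest genes and the 3 called genes with the largest change at 24 h after 20 Gy, and, of the 2 genes most like each member, the first. Alternatives were another pseudocount, filters, scalings and variance prior, a fit of only the groups compared, a replicate block, a fold change of 2, the highest transcript per gene, each library left out, and, added after seeing the data, aligned bases per gene.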

Additional observations from a re-analysis of the deposited data

Results flagged for a closer look

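Levels in the exposed groups differed between the times or doses for several members, by limma's test of the difference itself. At 5 Gy the log2 difference between 24 h and 12 h was -0.88 for Pdgfrb, -1.01 for Zic1, -0.63 for Tfap2b and -1.32 for Twist1. At 20 Gy it was -1.41 for Pdgfrb, -0.93 for Lum, -1.25 for Zic1, -1.63 for Tfap2b and -1.32 for Twist1. At 24 h the difference between 20 Gy and 5 Gy was -0.60 for Pdgfrb. Culture time and time after exposure cannot be told apart in these differences over time.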

How the results depend on the processing

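Across 26 settings, of the 28 member differences that passed in at least 1 setting, 411 alternative values kept direction and call, 13 gained and 21 lost a call, and 3 changed direction. These 3 were Tfap2b with the transcript of the highest mean FPKM in place of the sum, at 1.65 for 5 Gy at 24 h against control, 1.66 for 20 Gy at 24 h against control and 0.78 for 24 h against 12 h at 5 Gy. By construction that setting reads 1 transcript, ENSRNOT00000090920.

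The counts of members called moved by over 1.5 times in these cases. For 20 Gy against 5 Gy at 24 h the count was 0 after quantile normalization, with only the groups compared, at 2-fold and with the highest transcript, and 0 to 1 with a library left out. For 5 Gy at 12 h it was 2 with only the groups compared and with aligned bases per gene, 0 at 2-fold, and 1 to 2 with a library left out. For 20 Gy at 12 h it was 2 with the highest transcript and with aligned bases, 0 at 2-fold, and 1 to 2 with a library left out. For 24 h against 12 h it was 2 at 5 Gy at 2-fold and 3 at 20 Gy with the highest transcript. Apart from the 2-fold rule, the cause was not tested.

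With the replicate number as a block, 4 members were called for 24 h against 12 h at 20 Gy, with Lum lost at -0.93 (adjusted p = 0.0528 in limma), and no other member call changed. Same-numbered libraries did not deviate together: of 30 pairs, 4 had a correlation over 0.1, and the range was -0.18 to 0.23. Quantile normalization moved the median of all genes at 24 h after 20 Gy from -0.14 to -0.03.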
